A study of Mus musculus with 4 samples.

Results

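Ceramides are the main barrier lipids of the outer epidermis, and the 9 genes described here encode enzymes and a transporter that make, modify, move or split them. They are Acer1, Elovl4, Ugcg, Abca12, Aloxe3, Alox12b, Sptlc2, Degs2 and Smpd1, a list of named genes drawn up with earlier results of these data known, so their counts are no independent evidence. Every probe set whose platform annotation gives 1 of these symbols alone was taken, which gave 17 of the 45037 non-control probe sets on the array and 9 of 18193 named genes. Where a gene had several, the brightest probe set on average stands for it below, with the rest beside it.

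The series compared basal cells sorted from tail epidermis of CD-1 mice in which a tamoxifen-inducible Cre had switched on a YFP reporter. InvCREER/RosaYFP mice, with Cre driven by the promoter of involucrin, a precursor of the cornified envelope, received 10 ug of tamoxifen and gave 2 arrays. K14CREER/RosaYFP mice, with Cre driven by the promoter of the basal keratin 14, received 1 ug and gave the other 2 arrays. All groups shared the RosaYFP allele, the tamoxifen, the strain and the gate of living YFP-positive cells high for alpha6 integrin and negative for CD34. The tamoxifen dose changed with the Cre line, so the 2 cannot be told apart. The array titles give 3.5 days after induction against 4 days in the treatment text, and ages are not given in the sources used here. Whether both arrays of 1 Cre line are from different animals is not stated in the labels. The p-values here reflect only array-to-array spread, possibly technical for K14CREER. The 2 InvCREER arrays differed in Xist and Y-linked genes, given below, so their mix of male and female cells was not the same.

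In background, ceramide synthesis starts when serine palmitoyltransferase joins serine to a fatty acid, after which ceramide synthases and a desaturase complete the molecule. In the epidermis, very long fatty acids are hydroxylated at the chain end and built into ceramides. These are esterified with linoleate to acylceramides, glucosylated, packed into lamellar granules and secreted. Lipoxygenases then oxidise the linoleate, which allows the lipid to be bound to proteins of the cornified envelope. These steps are known mainly from the spinous and granular layers, above the basal cells that the gate was set for.

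The sorted cells were read for basal markers, which does not show that suprabasal cells were absent. All 8 basal markers, among them Krt14, Krt5, Itga6 and Trp63, had values above the intensity filter described below on every array. Both InvCREER arrays lay below both K14CREER arrays in all 8, against 24.1% of all genes tested. Krt15 was the 1 called, where 0.373% of all genes were called lower. The spinous keratin Krt10 was also high, at 14.07 and 14.11 in InvCREER and at 13.31 and 13.44 in K14CREER. Krt1 was at 13.48 and 13.74 in InvCREER, against 12.50 and 12.13 in K14CREER. Ivl, whose promoter drives Cre in InvCREER, lay at 4.78 and 5.06 in InvCREER and at 4.58 and 6.23 in K14CREER, with a mean below that filter. Cd34 was at 3.88 and 3.66 in InvCREER and at 6.07 and 3.59 in K14CREER. The array InvCREER 1 stood apart in several measures. Xist was at 12.56 there, against 5.44 to 8.26 on the other 3 arrays. The Y-linked genes Uty, Kdm5d and Eif2s3y were at 4.70, 5.04 and 7.49 on InvCREER 1. On the other 3 arrays they were at 7.19 to 7.85, 7.01 to 8.09 and 9.89 to 10.25. The Gapdh signal of InvCREER 1 was also the most 3' biased, which bears on RNA integrity. Its 3' minus 5' log2 difference was 0.74, against 0.05 to 0.33 on the others.

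Acer1 and Elovl4 rose in InvCREER by nearly the same amount, and the other 7 genes were either not called or not tested. A probe set was tested if its mean over the 4 arrays reached the median of all non-control probe sets, a log2 value of 5.42, and was called if its Benjamini-Hochberg adjusted p from limma over all 22519 tested probe sets was under 0.05. Over the whole array 216 of 22519 probe sets (0.959%) were called. Of the 9 genes 6 were tested, and in each of these the mean of either line lay above 5.42. Of the 6, 2 were called higher and 0 lower, where 108 of 11270 genes (0.958%) were called higher and 42 (0.373%) lower. In 4 of the 6 both InvCREER arrays lay above both K14CREER arrays, and in 1 below, against 21.3% and 24.1% of all genes tested. At an unadjusted p under 0.05 there were 4 of the 6, and 1817 of the 11270 genes tested. Their median difference, InvCREER minus K14CREER, was 0.75 in log2 units, against -0.01 over all genes tested. The arrays measure RNA of a sorted population, in which fewer cells of a type and less RNA per cell cannot be told apart.

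**Figure D1:**
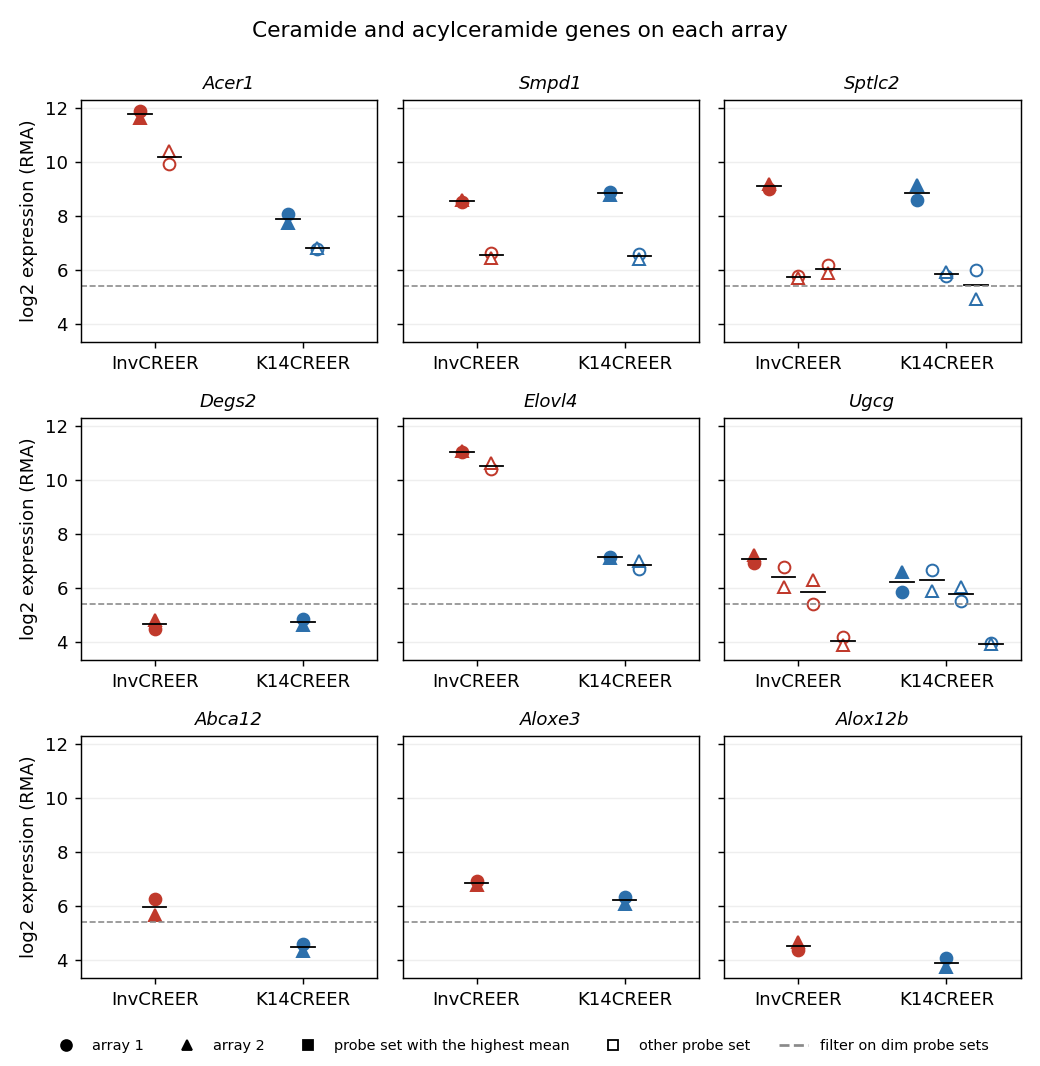
Log2 expression (y axis) of the 9 genes on the InvCREER and K14CREER arrays, a panel per gene; circles are array 1 and triangles array 2 of a line, filled for the brightest probe set on average, open for the others, and short bars are means of 2 arrays. Acer1 and Elovl4 are separated between the lines on both of their probe sets, while Degs2 and Alox12b lie under the dashed filter line at 5.42 on all arrays.

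Acer1 encodes alkaline ceramidase 1, which splits ceramides to sphingosine and a fatty acid and is known from the upper epidermis. It was at 11.89 and 11.62 in InvCREER, against 8.06 and 7.72 in K14CREER. No array of either line came near the other line. The difference was 3.86 (SE 0.21), a 14.6-fold rise with a 95% interval of 3.36 to 4.37 in log2 units (adjusted p = 0.00451 by limma). Its other probe set was at 9.92 and 10.41 in InvCREER and at 6.80 and 6.82 in K14CREER, a difference of 3.36 (adjusted p = 0.00722 by limma).

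Elovl4 encodes the elongase that makes the very long fatty acids of acylceramides. Its values were 11.02 and 11.06 in InvCREER, against 7.15 and 7.11 in K14CREER. Arrays of the same line differed by no more than 0.04. The rise was 3.91 (SE 0.19), or 15.0-fold, with a 95% interval of 3.44 to 4.37 (adjusted p = 0.00451 by limma). On its other probe set the values were 10.42 and 10.62 in InvCREER and 6.70 and 7.01 in K14CREER, a difference of 3.66 (adjusted p = 0.00612 by limma). By size of difference Elovl4 was number 7 and Acer1 number 8 of the 11270 genes. Both genes remained called without any 1 of the 4 arrays, where the line left with 1 array is assumed to vary like the other, with differences of 3.70 to 4.03 for Acer1 and 3.89 to 3.93 for Elovl4.

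The 2 genes also had like profiles over the arrays. After the mean of each profile was subtracted, the root mean square difference between Acer1 and Elovl4 over the 4 arrays was 0.15 in log2 units. The genes closest to Acer1 were Bpifc at 0.12, Elovl4 at 0.15 and the tail scale keratin Krt84 at 0.25. Closest to Elovl4 were Acer1, then Bpifc at 0.17 and the other tail scale keratin, Krt36, at 0.34. The remaining tested genes of the 9 lay at 1.56 to 2.09 from Acer1 and Elovl4. With 4 arrays in 2 lines this distance reflects mainly the size of the difference between the lines.

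**Figure D2:**
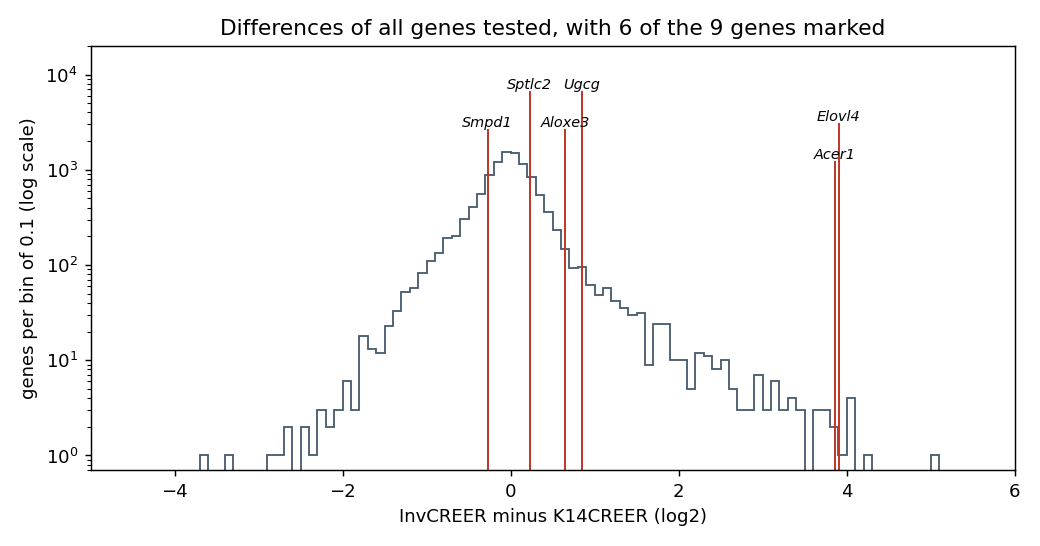
Distribution of the difference InvCREER minus K14CREER (log2, x axis) over the 11270 genes tested, as genes per bin on a log scale (y axis), with vertical lines at the 6 tested genes. Acer1 at 3.86 and Elovl4 at 3.91 lie in the far right tail, and Smpd1, Sptlc2, Aloxe3 and Ugcg lie between -0.27 and 0.85.

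Because Acer1 and Elovl4 moved together, the 250 bases before their annotated starts are shown, from RefSeq on GRCm38.p6, 5' to 3' on the gene's strand. The Acer1 stretch is chr17:56982127-56982376 and the Elovl4 stretch chr9:83806306-83806555, both on the minus strand. Capitals mark letters matching GCCNNNGGC, a form of the AP-2 motif, which reads the same on both strands.
Acer1: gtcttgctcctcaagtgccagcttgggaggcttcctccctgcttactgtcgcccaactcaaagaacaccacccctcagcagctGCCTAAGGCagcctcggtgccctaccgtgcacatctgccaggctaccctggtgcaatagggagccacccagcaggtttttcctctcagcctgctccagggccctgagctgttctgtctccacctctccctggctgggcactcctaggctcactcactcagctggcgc
Elovl4: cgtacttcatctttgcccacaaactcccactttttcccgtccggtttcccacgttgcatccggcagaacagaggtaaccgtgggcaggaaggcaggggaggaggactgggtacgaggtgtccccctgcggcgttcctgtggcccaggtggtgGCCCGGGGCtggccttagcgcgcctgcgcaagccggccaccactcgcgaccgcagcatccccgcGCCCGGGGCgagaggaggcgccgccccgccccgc
The motif occurs 1 time before Acer1, with its first base 167 bases before the start, and 2 times before Elovl4, with first bases 98 and 34 bases before it. It was present in 5 of the 8 promoters found among the 9 genes, those of Acer1, Elovl4, Ugcg, Alox12b and Degs2. The share over all 32851 promoters of this length in the table was 13.7%, and these were not matched for G and C content. Of the 5 genes Ugcg was not called, and Alox12b and Degs2 were not tested. Motifs for Grainyhead-like factors (AACNGGTT), AP-1 (TGANTCA) and the TATA box (TATAAA) were in 0 of the 8, and in 1.79%, 6.75% and 12.4% of all promoters. The nuclear receptor motif AGGTCA was in 1 of the 8, that of Smpd1, and in 14.02% of all. All motifs were searched on both strands. A match describes the letters alone, and does not show that a factor binds there.

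Of the 9, Sptlc2 and Degs2 act in making the ceramide backbone, and neither was called. Sptlc2, a catalytic subunit of serine palmitoyltransferase, was at 9.004 and 9.177 in InvCREER, against 8.59 and 9.13 in K14CREER. The lines overlapped, and the difference was 0.23 (95% interval -0.38 to 0.84, adjusted p = 0.811 by limma). Without K14CREER 1 it was -0.041. Its 2 other probe sets were at -0.10 and 0.58 and were not called. Degs2, a desaturase and hydroxylase that makes phytoceramides, was at 4.50 and 4.82 in InvCREER and at 4.88 and 4.63 in K14CREER. All 4 values were under the filter and overlapped, so it was not tested.

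Ugcg, which adds glucose to ceramide before it enters lamellar granules, was at 6.93 and 7.24 in InvCREER, against 5.87 and 6.60 in K14CREER. Both InvCREER arrays were higher, by 0.85 on average (95% interval 0.09 to 1.60), but the difference did not pass over all probe sets (adjusted p = 0.299 by limma). Its other probe sets disagreed with that size: they were at 0.13 and 0.07, with overlapping lines, and the fourth lay under the filter. As the mean of its 3 tested probe sets Ugcg was at 0.35 (adjusted p = 0.455 by limma).

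Abca12, the transporter that loads glucosylceramides into lamellar granules, was at 6.28 and 5.67 in InvCREER, against 4.61 and 4.36 in K14CREER. Its 2 InvCREER values were above the filter and its 2 K14CREER values below, and its mean of 5.23 missed the filter by 0.19. With no filter on dim probe sets its difference was 1.49 (SE 0.26, adjusted p = 0.0771 by limma). The part of array background in the K14CREER values was not tested.

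Of the pair of epidermal lipoxygenases that act in sequence on acylceramide linoleate, Aloxe3 was at 6.93 and 6.80 in InvCREER, against 6.32 and 6.10 in K14CREER. The lines did not overlap, and the difference of 0.65 (95% interval 0.09 to 1.21) was not called (adjusted p = 0.277 by limma). Alox12b, which acts before Aloxe3, was at 4.37 and 4.67 in InvCREER and at 4.09 and 3.74 in K14CREER. It was higher on both InvCREER arrays by 0.60 on average, with every value under the filter. With no filter its adjusted p by limma was 0.293.

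Smpd1, the acid sphingomyelinase that frees ceramide from sphingomyelin, was the 1 tested gene of the 9 with a lower mean in InvCREER. It was at 8.52 and 8.61 there, against 8.90 and 8.77 in K14CREER. The difference was -0.27 (95% interval -0.77 to 0.22, adjusted p = 0.681 by limma), and its other probe set, of a less specific design, was at 0.05 with overlapping lines.

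To set the 9 genes in their pathway, 62 further genes in 7 lists were read in the same fit. Of these 58 had a probe set with 1 symbol. Of 50 tested, 10 were called higher in InvCREER and 0 lower, where the shares over all genes were 0.958% and 0.373%. Ephx3 and Alox12 were tested only through their InvCREER level. Among the 47 with the mean of either line above the filter 8 were called higher, against 88 of 10904 genes (0.807%). Both InvCREER arrays lay above both K14CREER arrays in 31 of the 50 and below them in 6, against 21.3% and 24.1% of all genes tested. The median difference of the 50 was 0.54, against -0.01 over all genes tested. Of the 10 calls 2, Alox12 and Ephx3, remained without K14CREER 1 and 1, Alox12, without K14CREER 2, while all 10 remained without InvCREER 1 and without InvCREER 2. The differences stayed positive in all 10 when a K14CREER array was left out, at 0.71 to 2.93, and the spread then came from the InvCREER pair alone.

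The next genes attach and oxidise the linoleate of acylceramides. Among 6 genes of acylceramide formation and linoleate oxidation 5 were tested. In all 5 both InvCREER arrays lay above both K14CREER arrays, against 21.3% of all genes tested. Of the 5, 4 were called higher, against 0.958% of all genes. The median difference was 1.84, or 2.03 without K14CREER 1 and 1.74 without K14CREER 2. Without Ephx3, which was tested through its InvCREER level, 3 of 4 were called higher. Cyp4f39, the mouse counterpart of the human hydroxylase CYP4F22, was at 8.18 and 8.04 in InvCREER, against 6.11 and 5.69 in K14CREER, a rise of 2.21 (SE 0.25, adjusted p = 0.0226 by limma). Pnpla1, which joins linoleate to the hydroxylated ceramide, was at 7.87 and 8.18 in InvCREER, against 6.28 and 6.27 in K14CREER, and rose by 1.75 (adjusted p = 0.0376 by limma). For all 3 of Cyp4f39, Pnpla1 and Nipal4 the lower InvCREER array lay well above the higher K14CREER array.

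Nipal4, a membrane protein whose human counterpart is mutated in ichthyosis, was at 8.39 and 8.45 in InvCREER, against 6.77 and 6.39 in K14CREER, a rise of 1.84 (adjusted p = 0.0352 by limma). The probe set is of a kind shared by more than 1 transcript, and its other probe set was at 0.23 with overlapping lines (adjusted p = 0.802 by limma). Ephx3, an epoxide hydrolase, was at 6.81 and 7.49 in InvCREER, against 4.74 and 4.22 in K14CREER, and rose by 2.66 (adjusted p = 0.0264 by limma). Its K14CREER mean of 4.48 lay under the filter, so that it was tested through its InvCREER level. Abhd5, the cofactor that works with Pnpla1, was at 0.87 (adjusted p = 0.118 by limma). Sdr9c7, a dehydrogenase acting on the oxidised linoleate, was not tested, at 5.30 and 5.78 in InvCREER and 3.89 and 4.01 in K14CREER.

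**Figure D3:**
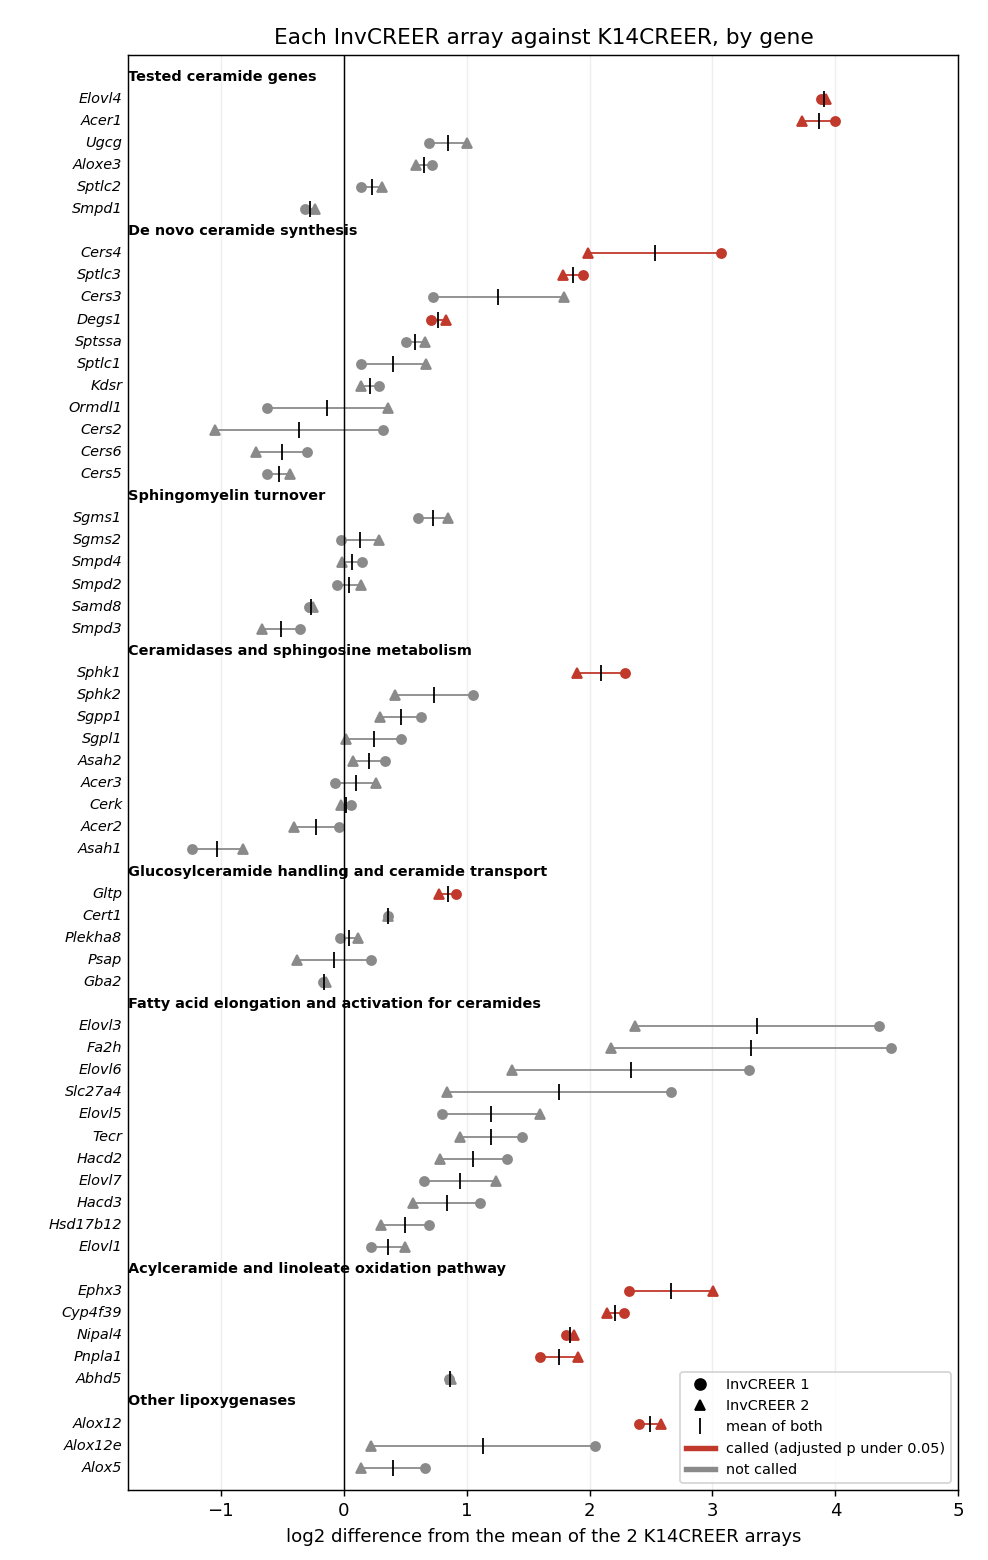
Log2 difference of InvCREER 1 (circles) and InvCREER 2 (triangles) from the mean of the 2 K14CREER arrays (x axis), for the 6 tested genes of the 9 and the 50 tested genes of 7 pathway lists (rows), with a tick at the mean of both and red for called genes. Acer1 and Elovl4 have the highest means, at 3.86 and 3.91, the called acylceramide genes lie between 1.75 and 2.66, and several elongation genes such as Elovl3 and Fa2h spread widely between the InvCREER arrays.

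Among 5 other lipoxygenases 3 were tested, and Alox12, an arachidonate lipoxygenase, was the 1 called, where 0.958% of all genes were called higher. It was at 7.21 and 7.40 in InvCREER, against 4.95 and 4.68 in K14CREER, a rise of 2.49 (SE 0.23, adjusted p = 0.0133 by limma) with a K14CREER mean under the filter. Alox5 was at 0.40 (adjusted p = 0.605 by limma).

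In de novo ceramide synthesis a subunit, a ceramide synthase and a desaturase were called higher. Of 11 genes tested 3 were called higher and 0 lower, where the shares over all genes were 0.958% and 0.373%. Without the variance trend in limma 0 of the 11 were called, and with cyclic loess scaling 1, Degs1. The difference was positive in 7 and negative in 4, with a median of 0.41. Cers4, a ceramide synthase, was at 11.43 and 10.35 in InvCREER, against 8.22 and 8.50 in K14CREER, a rise of 2.53 (SE 0.36, adjusted p = 0.0422 by limma). Its 2 other probe sets were at 2.44 and 2.80, which missed the threshold (adjusted p = 0.0514 and 0.0665 by limma). Sptlc3, a further catalytic subunit of serine palmitoyltransferase, was at 9.70 and 9.53 in InvCREER, against 8.03 and 7.47 in K14CREER, and rose by 1.86 (adjusted p = 0.0403 by limma). Sptlc2 was at 0.23, and whether the 2 subunits differ in their change was not tested. Degs1, the main dihydroceramide desaturase, rose by 0.77 (adjusted p = 0.0384 by limma), and its other probe set was at 0.98 (adjusted p = 0.0952 by limma). Cers3, the synthase that takes the very long products of Elovl4, was at 8.57 and 9.63 in InvCREER, against 7.55 and 8.13 in K14CREER, a difference of 1.26 that was not called (adjusted p = 0.227 by limma). Lowest in this list was the synthase gene Cers5, at -0.53 (adjusted p = 0.453 by limma).

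Of the other ceramidase genes none was called, with Acer2 at -0.22, Acer3 at 0.10 and Asah1 lower. Among 9 tested genes of ceramide hydrolysis and sphingosine metabolism 1 was called higher and 0 lower, against 0.958% and 0.373% of all genes. The difference was positive in 7 and negative in 2, with a median of 0.21. Asah1, the lysosomal acid ceramidase, was at 8.70 and 9.12 in InvCREER, against 9.90 and 9.97 in K14CREER, a difference of -1.03 in the opposite direction that was not called (adjusted p = 0.0971 by limma). It was called lower without InvCREER 2 (-1.23, adjusted p = 0.0289 by limma) and with probe sets averaged per gene (adjusted p = 0.0481). Sphk1, which phosphorylates the sphingosine that ceramidases release, was at 9.60 and 9.20 in InvCREER, against 7.24 and 7.37 in K14CREER, and rose by 2.09 (SE 0.24, adjusted p = 0.0223 by limma).

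Turnover of sphingomyelin, the pathway of Smpd1, showed 0 called of 6 tested genes by limma, and 1 with an unadjusted p under 0.05, a share like that of all genes (1817 of 11270). Sgms1, a sphingomyelin synthase, was at 0.73 (adjusted p = 0.246 by limma) and Smpd3, a neutral sphingomyelinase, at -0.51 (adjusted p = 0.398 by limma). Of 5 tested genes for glucosylceramide handling and ceramide transport 1 was called, where 0.958% of all genes were called higher. This was the glycolipid transfer protein gene Gltp, higher by 0.85 (adjusted p = 0.0463 by limma). It was at 13.06 and 12.92 in InvCREER, against 12.01 and 12.28 in K14CREER, and its probe set is also of the kind shared by more than 1 transcript. Gba2, a glucosylceramidase outside the lysosome, was at -0.16 (adjusted p = 0.861 by limma).

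Fatty acid elongation and activation genes, the surroundings of Elovl4, lay higher in InvCREER with 0 called by limma and 10 of 11 at an unadjusted p under 0.05, against 1817 of 11270 genes. In all 11 tested both InvCREER arrays were above both K14CREER arrays, against 21.3% of all genes tested. Their median difference was 1.20. Elovl3, an elongase known from sebaceous glands, was at 10.47 and 8.48 in InvCREER, against 6.49 and 5.74 in K14CREER, a difference of 3.36 (SE 0.64, adjusted p = 0.0750 by limma). Slc27a4, which takes up and activates fatty acids, was at 10.72 and 8.89 in InvCREER, against 8.34 and 7.77 in K14CREER (1.75, adjusted p = 0.241 by limma). Elovl1 had the smallest difference of the list, 0.36 (adjusted p = 0.441 by limma). In 8 of the 11 the level on InvCREER 1 exceeded that on InvCREER 2, by up to 2.27 for Fa2h, a fatty acid hydroxylase named here after its values were seen. Without InvCREER 1 the median of the 11 was 0.94 and 6 were called, and without InvCREER 2 it was 1.33 and 8 were called. Raising the filter to the 75th percentile gave 4 calls among the 11, and averaging probe sets per gene gave 3.

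Markers of other cells differed between the InvCREER arrays too. The 9 sebaceous gland markers with a probe set, of 12 listed, averaged 10.38 and 8.89 in InvCREER, against 7.70 and 7.24 in K14CREER, and all 9 were higher on InvCREER 1 than on InvCREER 2, by 0.69 to 2.13. The 8 Langerhans and myeloid markers averaged 7.28 and 5.94 in InvCREER and 5.45 and 5.10 in K14CREER. The 6 melanocyte markers went the other way between the InvCREER arrays. They averaged 5.71 and 6.24 in InvCREER and 6.21 and 5.70 in K14CREER. In the 3 tested, InvCREER 1 minus InvCREER 2 was between -1.05 and -0.58. Acer1 was 0.27 higher on InvCREER 1 than on InvCREER 2 and Elovl4 0.04 lower. On their other probe sets InvCREER 1 minus InvCREER 2 was -0.49 for Acer1 and -0.20 for Elovl4. Of the 5 tested acylceramide genes 1 was higher on InvCREER 1. The 7 spinous markers averaged 11.68 and 11.85 in InvCREER, against 10.48 and 10.68 in K14CREER. Of the 6 tested 5 were called higher, against 0.958% of all genes. The 6 granular and cornified envelope markers averaged 7.56 and 7.83 in InvCREER, against 6.68 and 6.34 in K14CREER, with 0 of 5 called and 3 at an unadjusted p under 0.05, and differences between 0.03 for Casp14 and 3.27 for Sprr1b. The 7 dermal fibroblast markers averaged 5.72 and 5.62 in InvCREER, against 6.95 and 6.21 in K14CREER, and the means of all but 3 were under the filter. Of the 3 tested Sparc was called lower, at -2.36. Dcn was at -1.87 and not called, and Col1a2 at -0.33 with overlapping lines. The K14CREER mean of Sparc was 12.15, against 4.75 for Col1a1, which was not tested. Of 4 tested hair follicle markers 2 were higher and 2 lower in InvCREER, with a median difference of 0.27. Lgr6 was the 1 called, lower at -1.79, while Krt79 was at 1.98, Sox9 at 0.78 and Lrig1 at -0.24. The part of these other cells in the differences of the ceramide genes was not tested. Without InvCREER 1, Acer1 was at 3.73 and Elovl4 at 3.93, against 3.86 and 3.91 with it. The median difference of the 9 sebaceous gland markers was 1.06 without InvCREER 1 and 1.81 with it. Merkel cell and endothelial markers had no tested probe set, and the 2 named T cell markers averaged 4.54 and 4.63 in InvCREER and 4.47 and 4.72 in K14CREER.

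**Figure D4:**
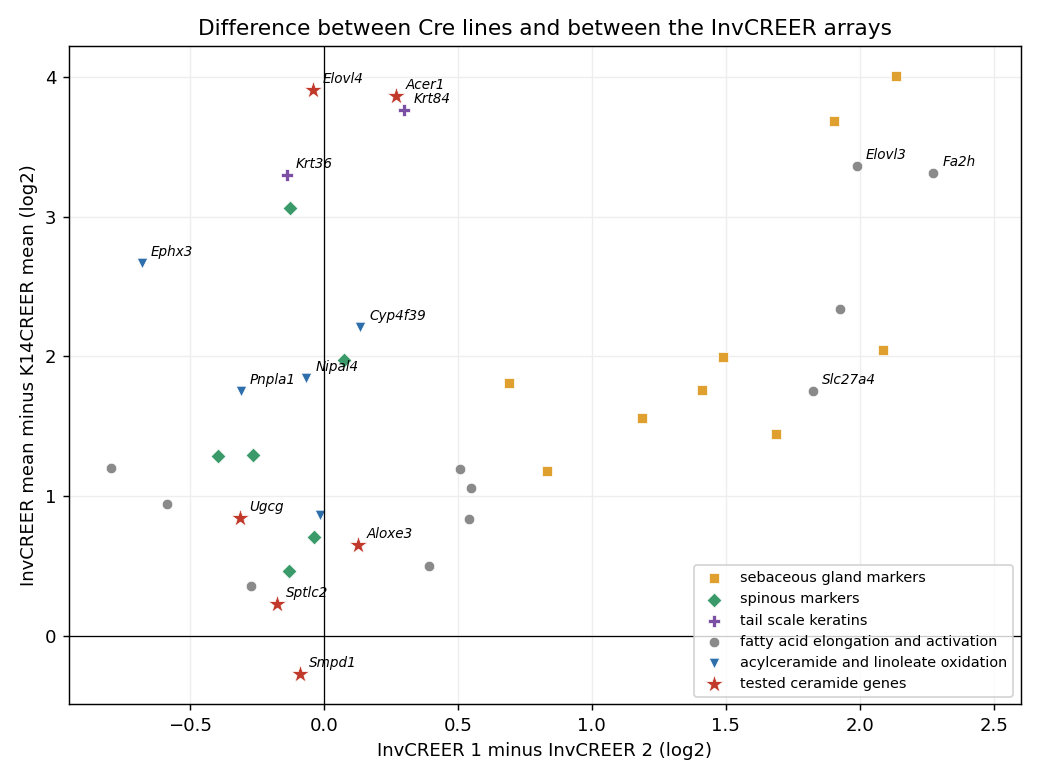
Difference between the Cre lines (InvCREER mean minus K14CREER mean, log2, y axis) against the difference between the InvCREER arrays (InvCREER 1 minus InvCREER 2, log2, x axis) for tested genes, a point per gene, with symbols by list. Acer1 and Elovl4 stand at 3.86 and 3.91 near 0 on the x axis beside Krt84 and Krt36, while Elovl3, Fa2h and the sebaceous markers lie to the right.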

How the data were processed

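RNA of sorted tail epidermal cells, 100 ng per array, was measured on 4 Affymetrix arrays. The authors deposited log2 values per probe set, for which the submitters' processing notes name RMA and Affymetrix Expression Console 1.1. RMA sets all arrays to a common distribution, so a change in total RNA cannot be seen, and the number of arrays limits the precision.

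After 64 control probe sets were left out, 22519 of 45037 probe sets had a mean of at least 5.42, the median, and were fitted with limma 3.58.1 in R 4.3.3 (lmFit, eBayes with trend, 2-sided, Benjamini-Hochberg adjustment). An exact permutation test of 2 arrays against 2 cannot go below p = 0.333. Symbols came from the platform annotation, updated by Entrez number (34754 of 34945 probe sets with 1 symbol matched RefSeq), and 932 probe sets with several symbols were not named. The brightest probe set on average stood for each gene.

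Members and lists were chosen with earlier results of these data known. Named were all members, called pathway genes, the largest and smallest difference of each list, and Cers3, Pnpla1, Nipal4, Cyp4f39, Sdr9c7 and Slc27a4; 1 further gene of this rule is not reported here. Promoters of 250 bases came from RefSeq, which listed 8 of the 9 genes. In all 14 alternatives were run, over filters, weights, scaling, probe sets, threshold, the replicate number and left-out arrays. The procedure was tested on simulated data.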

Additional observations from a re-analysis of the deposited data

How the results depend on the processing

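With 2 arrays per line the number of calls depended on the setting, while Acer1 and Elovl4 were the 2 called members under all 14 alternatives, at 3.61 to 4.03 and 3.79 to 3.93. Without 1 array, 82 to 981 probe sets were called over the whole array, against 216, and 1 to 20 pathway genes, against 10. The lowest probe set count was without K14CREER 1 and the highest without InvCREER 2. Over the whole array 405 probe sets were called with the stricter filter on dim probe sets, 122 without the variance trend, 692 at an adjusted p under 0.10 and 450 genes with each gene as the mean of its probe sets. For pathway genes the count was 6 without the trend and 6 with plain probe sets only. Array titles of the lines share replicate numbers, but the labels do not say that a number marks a shared mouse or day. With the replicate number as a block, 1390 probe sets and 23 pathway genes were called, among them 8 of the 11 elongation genes and Asah1 as lower (adjusted p = 0.0237 by limma), and deviations of same-numbered arrays correlated at 0.38 over 22519 probe sets, with 2 pairs. Sptlc2, at 0.23 with all arrays, ranged between -0.041 (without K14CREER 1) and 0.50 (without K14CREER 2). Ugcg and Aloxe3 had no value with the stricter filter and Smpd1 none with plain probe sets. The cause of these shifts was not tested.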
